A study of Mus musculus with 10 samples.

Results

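The genes considered here code for the enzymes that make and degrade cAMP and for the kinase that reads it. They are the adenylyl cyclases (Adcy1 to Adcy10), the cyclic nucleotide phosphodiesterases (PDE genes of families Pde1 to Pde11) and the catalytic and regulatory subunits of protein kinase A (PKA; Prkaca, Prkacb, Prkar1a, Prkar1b, Prkar2a and Prkar2b). The rule for members was their gene symbol, and 38 of the 23230 features of the deposited RNAseq matrix matched: 10 cyclases, 22 PDE genes and 6 PKA subunits.

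The study modelled the step from tumorigenic astrocytes to glioma propagating cells. It also asked what Zfp423, a zinc finger transcription factor, does when it is overexpressed in the tumorigenic astrocytes. AstroEGFR* (3 libraries) were cortical astrocytes of C57BL/6 pups at postnatal day 5, null for Ink4a/Arf (given as p16/p19 knockout) and carrying a retrovirus for EGFR*, the constitutively active variant III of the human EGF receptor, and they were grown with fetal bovine serum. PT (4 libraries) were cultures of cells from tumours that AstroEGFR* formed in CD1 Nude mice, with the same deletion and receptor, grown without serum with EGF and FGF2 on laminin. The third group (3 libraries) was AstroEGFR* infected with a Zfp423 vector, called lentiviral in the sample labels and retroviral in the paper. All came from 3 astrocyte batches (batch 1 gave PT1 and PT4, batch 2 gave PT2, batch 3 gave PT3), and cultures were used before passage 10. AstroEGFR* and PT differed in medium, tumour step and host together, and these cannot be told apart. Whether replicate libraries of 1 batch were separate infections was not given, so p-values measure the spread between these libraries.

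cAMP is made by adenylyl cyclases when receptors coupled to the G protein Gs are occupied, and it is removed by PDEs. It binds the regulatory subunits of PKA, which then let go of the catalytic subunits. These phosphorylate many proteins, among them the transcription factor CREB, whose binding site is TGACGTCA. In cultured astrocytes, agents that raise cAMP are known to bring about a process-bearing shape and differentiation.

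Values are FPKM (fragments per length of transcript and number of mapped fragments) as deposited, a scale on which levels of different genes can be set side by side. Libraries differed in quality more than their sums show. The shallowest were AstroEGFR*3 and PT3, with an estimated depth of 0.118 and 0.155 relative to 1 for the Zfp423-infected AstroEGFR*1 library, while the others ranged from 0.853 to 1.68. Small non-coding RNA took 0.209%, 27.5% and 4.81% of the FPKM in AstroEGFR*1 to AstroEGFR*3 and 0.417%, 33.9%, 6.06% and 0.606% in PT1 to PT4. It took 34.7%, 34.9% and 54.4% in infected AstroEGFR*1 to AstroEGFR*3, above every uninfected library. Its part in the comparison with Zfp423 was not tested. Zfp423 itself was listed at 3.25 to 4.30 FPKM in AstroEGFR*, 0.641 to 2.78 in PT, and 15.7, 9.73 and 105 in the infected AstroEGFR*1, AstroEGFR*2 and AstroEGFR*3. Astrocyte markers (9 of 9 found) summed to 515 to 1056 FPKM in AstroEGFR*, 352 to 941 in PT, and 207, 60.0 and 912 in the 3 infected cultures, so infected AstroEGFR*2 held little of them. Markers of other cells also stood apart in single libraries. The 8 microglia markers summed to 897 and 578 FPKM in infected AstroEGFR*1 and AstroEGFR*2, 0.156 in infected AstroEGFR*3, 6.44 to 39.3 in AstroEGFR* and 0.219 to 2.55 in PT. The 7 fibroblast or meninges markers summed to 323, 520 and 5180 in AstroEGFR*, 4.07 to 404 in PT, and 4561, 6288 and 229 in the infected cultures. The 8 oligodendrocyte lineage markers summed to 66.8 to 223 in AstroEGFR*, 1357, 145, 131 and 1689 in PT1 to PT4, and 38.3 to 161 with Zfp423. The 8 neuron markers summed to at most 102 FPKM (PT4, with 99.4 from Tubb3), and the 7 endothelium markers to at most 14.9, with Cldn5 at most 0.0129 everywhere. Since Hmgcs1 was at 0 in every library and Gapdh ran from 0.0106 to 50.1 FPKM, a value near 0 is only what the matrix lists and does not show that a transcript was missing.

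Promoter sequences are shown for the members on which the comparison of PT with AstroEGFR* turned: Prkacb and Pde4b, the members with the lowest p-values, and Pde4a, which stood lower in PT. The stretches are RefSeq sequence, build GRCm38.p6, given 5′ to 3′ on the strand of the gene and kept upstream of annotated exons, and capitals mark the letters TGACG or their reverse complement CGTCA, the core that CREB sites share.
Prkacb, chr3:146812991-146813140, minus strand, positions -194 to -45 from the start site: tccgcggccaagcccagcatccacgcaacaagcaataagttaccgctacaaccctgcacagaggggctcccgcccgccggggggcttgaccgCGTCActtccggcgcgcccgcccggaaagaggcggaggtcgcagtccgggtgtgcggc
Pde4b, chr4:102421368-102421517, plus strand, positions -187 to -38: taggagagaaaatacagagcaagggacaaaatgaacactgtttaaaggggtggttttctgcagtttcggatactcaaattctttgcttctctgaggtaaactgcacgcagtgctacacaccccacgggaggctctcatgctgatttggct
Pde4a, chr9:21165564-21165713, plus strand, positions -150 to -1: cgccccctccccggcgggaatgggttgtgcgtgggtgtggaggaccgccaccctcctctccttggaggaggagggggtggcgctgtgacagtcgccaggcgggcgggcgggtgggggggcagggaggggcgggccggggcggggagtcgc

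The Prkacb stretch was 70.0% G and C and the Pde4a stretch 78.0%, against 46.0% for Pde4b. Each of these genes had several start sites in RefSeq, and 1 of 3 Prkacb windows, 1 of 4 Pde4b windows and 1 of 3 Pde4a windows held TGACG on either strand. RefSeq gave windows of 300 bases for 30 of the 38 members. The short motif was in 15 of their 67 windows (22.4%) and in 20.8% of all 32851 promoter windows, so that the members were near the share of all promoters. The whole site TGACGTCA, which contains the short motif on both strands, was in 1.79% of all windows and in 2 members' windows, both of Prkar1a, the regulatory subunit gene with the highest expression. There it lay at position -49 from a start site, shown with the whole site in capitals:
Prkar1a, chr11:109650890-109650917, plus strand: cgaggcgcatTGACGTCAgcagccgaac

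A total of 28 members passed the filter of a mean of at least 1 FPKM in the comparison of PT with AstroEGFR*, and 24 in that with Zfp423. In both, 10 were under it, with values of at most 0.832 FPKM in any library: Adcy2, Adcy4, Adcy8, Adcy10, Pde1c, Pde4c, Pde6a, Pde6b, Pde6c and Pde11a. Adcy1, Adcy5, Pde7b and Pde9a passed only in the comparison with PT. The filter takes the mean over both groups, so a gene expressed in 1 group alone could pass through that group.

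The first comparison asked how this machinery differs between AstroEGFR* and the PT that arose from them. Prkacb, the gene of the catalytic subunit C-beta, rose in PT. It was listed at 61.3, 55.2 and 42.0 FPKM in AstroEGFR*1 to AstroEGFR*3 and at 138, 142, 120 and 156 in PT1 to PT4. Every PT library was above every AstroEGFR* library, and PT were 2.25, 2.58, 2.84 and 2.55 times their own parental culture. The log2 fold change on log2(FPKM + 1) was 1.39 (SE 0.24), with an adjusted p of 0.0411 in limma with Benjamini-Hochberg adjustment over all 12261 features tested. With the astrocyte batch as a block it was 1.35 (SE 0.15), adjusted p = 0.0223. By exact permutation of the group labels (two-sided) p was 0.0286, and 4 against 3 libraries allow none smaller. This permutation took the 7 libraries as exchangeable. It ignored that they came from 3 batches, with PT1 and PT4 both of batch 1. Without any 1 of the 7 libraries the log2 fold change was 1.24 to 1.50, but the adjusted p was 0.0647 to 0.142, and it was 0.161 without batch 3. It was also above the threshold with PT1 and PT4, of the same batch, averaged (0.115) and with all 10 libraries in 1 fit (0.0562). In bulk RNA a change in the share of cells of a type and a change in RNA per cell cannot be told apart. The fibroblast or meninges sum was below every AstroEGFR* library in PT1, PT2 and PT4 and the oligodendrocyte lineage sum above them in PT1 and PT4, and their part in the result was not tested.

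Prkaca, which codes for C-alpha, the other catalytic subunit, did not pass the test. It was listed at 48.6, 72.3 and 67.4 FPKM in AstroEGFR* and at 64.0, 72.5, 54.5 and 71.7 in PT, with overlapping groups and a log2 fold change of 0.08 (SE 0.24, adjusted p = 0.933, limma). Prkacb thus made up 55.8%, 43.3% and 38.4% of the summed catalytic FPKM in AstroEGFR*1 to AstroEGFR*3 and 68.3%, 66.3%, 68.7% and 68.6% in PT1 to PT4. This share uses the same Prkacb values and is no further support. A share within a library does not depend on scaling between libraries, and it lay within 66.3% to 68.7% in PT while AstroEGFR* ranged over 38.4% to 55.8%.

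**Figure D1:**
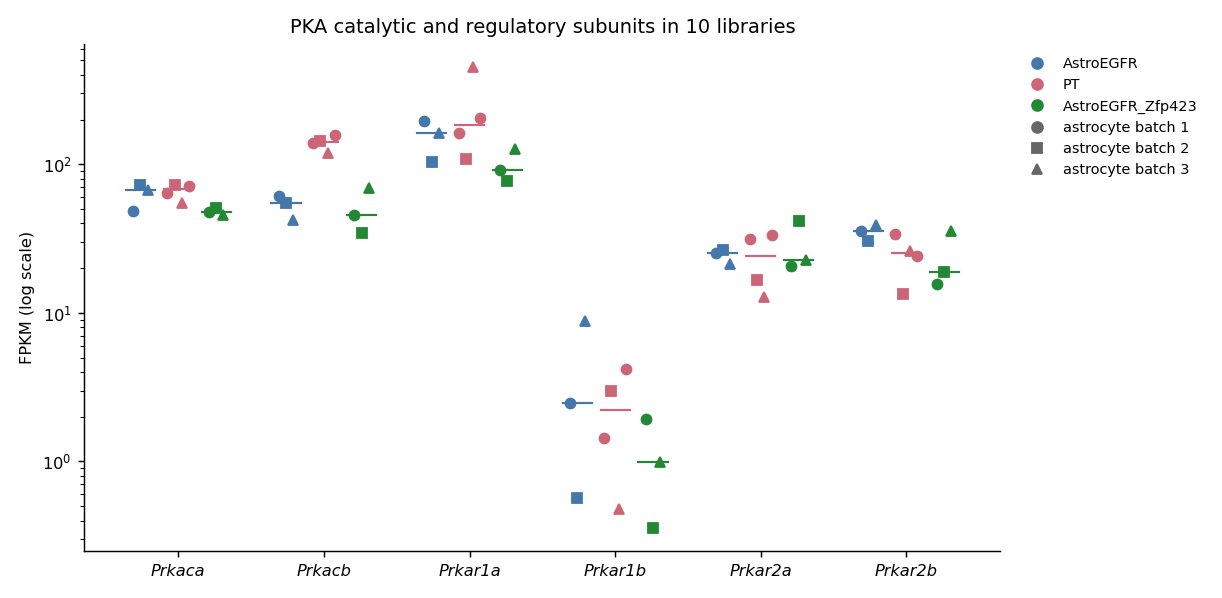
FPKM on a log scale of the 6 PKA subunit genes in 10 libraries, coloured by group, with a symbol for each astrocyte batch and a line at the group median. Prkacb in PT (120 to 156 FPKM) lies above all other libraries, while Prkaca and the regulatory subunits overlap between PT and AstroEGFR*.

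None of the 4 regulatory subunit genes was called. Prkar1a, the gene of RI-alpha and the most highly expressed of them, was listed at 196, 103 and 163 FPKM in AstroEGFR* and at 163, 108, 451 and 204 in PT. PT3, 1 of the shallow libraries, stood far above the range of AstroEGFR* and PT4 slightly above it, PT1 and PT2 were within it, and the log2 fold change was 0.43 (SE 0.50, adjusted p = 0.780, limma). Prkar2a, Prkar2b and Prkar1b had log2 fold changes of -0.15, -0.57 and -0.36, each with overlapping groups. The ratio of summed regulatory to summed catalytic FPKM was 2.36, 1.26 and 2.12 in AstroEGFR* and 1.14, 0.656, 2.82 and 1.16 in PT. It was below that of the parental culture in PT1, PT2 and PT4 and above it in PT3.

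Among the genes for PDEs, Pde4b had the clearest difference and Pde4a, of the same cAMP-specific family, differed in the opposite direction. Pde4b was listed at 9.12, 10.7 and 9.39 FPKM in AstroEGFR* and at 26.4, 98.4, 52.8 and 33.4 in PT. The AstroEGFR* libraries were close to each other, all PT libraries were above them, and PT were 2.89, 9.18, 5.62 and 3.66 times the parental culture. The log2 fold change was 2.14 (SE 0.43), and the adjusted p of 0.0698 (limma) missed the threshold. With the batch as a block, which the pairing of these libraries warrants, it was 2.28 (SE 0.31) with an adjusted p of 0.0285. Over all alternatives the adjusted p ran from 0.0285 to 0.289. Pde4b is itself a known target of CREB.

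Pde4a was listed at 6.55, 3.83 and 3.10 FPKM in AstroEGFR* and at 0.252, 0.480, 1.29 and 0.362 in PT. No PT library reached the lowest AstroEGFR* library, with a log2 fold change of -1.77 (SE 0.38) and an adjusted p of 0.0802 (limma), which missed the threshold. The mean of Pde4a was 4.49 FPKM in AstroEGFR* and 0.597 in PT, so it passed the filter through AstroEGFR*. With a pseudocount of 0.1 its log2 fold change was -2.86. The exact permutation p, which ignored the batches, was 0.0286 for Pde4a and for Pde4b alike, the smallest that this test allows. Pde4d, the other gene of the family that passed the filter, overlapped between groups, with 3.17 to 4.65 FPKM in AstroEGFR* and 1.59 to 7.33 in PT. Within PT2, the library with the highest Pde4b, Pde4d was also highest (7.33 FPKM).

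Of the other cAMP-specific PDE genes, Pde7b and Pde8b had absolute log2 fold changes of at least 1 and neither was called. Pde7b was listed at 0.487, 1.19 and 1.39 FPKM in AstroEGFR* and at 4.14, 4.77, 1.42 and 13.8 in PT. The groups did not overlap, but PT3 exceeded its parental culture by 1.02 times only (log2 fold change 1.53, SE 0.59, adjusted p = 0.312, limma). Pde8b was listed at 1.64, 31.0 and 5.09 FPKM in AstroEGFR* and at 1.50, 3.90, 0.262 and 3.13 in PT (log2 fold change -1.50, SE 0.86, adjusted p = 0.508, limma). The log2 fold change was -0.50 without AstroEGFR*2 and -2.30 without AstroEGFR*1. Pde7a, which varied little, was listed at 13.0 to 17.8 FPKM in AstroEGFR* and 8.97 to 15.5 in PT.

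Among the families that hydrolyse both cAMP and cGMP, Pde1a and Pde2a had absolute log2 fold changes of at least 1. Pde1a, a PDE activated by calcium and calmodulin, was the highest of this class by its mean over all 10 libraries, and Pde2a was above it in PT1 and PT4 only. Pde1a was listed at 11.6, 30.3 and 48.2 FPKM in AstroEGFR* and at 6.15, 3.95, 19.9 and 3.11 in PT. Each PT library was below its own parental culture, at 0.531, 0.130, 0.412 and 0.268 times its level, but PT3 was above AstroEGFR*1, and the log2 fold change of -1.86 (SE 0.66) had an adjusted p of 0.281 (limma). Pde2a, whose product is stimulated by cGMP, was listed at 0.446, 16.9 and 0.433 FPKM in AstroEGFR* and at 72.5, 2.23, 16.7 and 41.4 in PT. It was higher than in the parental culture in batches 1 and 3 and lower in batch 2, and the log2 fold change of 2.62 (SE 1.26) had an adjusted p of 0.420 (limma). It was 3.83 without AstroEGFR*2, 3.51 without PT2, 2.02 without AstroEGFR*1 and 2.01 without either AstroEGFR*3 or PT1. Pde1b, Pde3a, Pde3b and Pde10a overlapped between the groups and had log2 fold changes of 0.30 to 0.85.

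**Figure D2:**
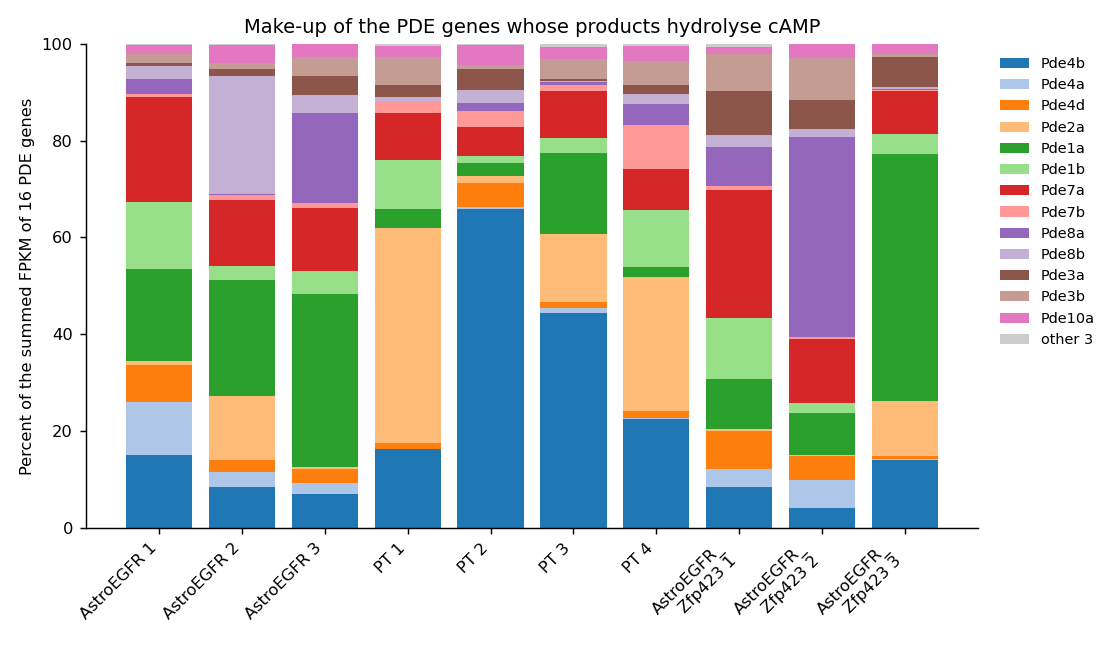
Percent of the summed FPKM of the 16 PDE genes whose products hydrolyse cAMP that each gene took, in each of 10 libraries. Pde4b or Pde2a is the largest in all 4 PT, while in AstroEGFR* it is Pde7a, Pde8b or Pde1a.

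The make-up of the cAMP-hydrolysing PDE transcripts therefore differed between cultures of 1 label. The leading gene was Pde7a (21.5% of the summed FPKM of 16 genes) in AstroEGFR*1, Pde8b (24.4%) in AstroEGFR*2 and Pde1a (35.7%) in AstroEGFR*3. In PT it was Pde2a in PT1 and PT4 (44.6% and 27.8%), both of batch 1, and Pde4b in PT2 and PT3 (65.9% and 44.3%). Where Pde2a led, Pde4b followed with 16.2% and 22.4%. The summed FPKM of these genes was 60.4, 127 and 135 in AstroEGFR* and 163, 149, 119 and 149 in PT.

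Of the 5 cGMP genes of families Pde5, Pde6 and Pde9 other than Pde6d, Pde6a, Pde6b and Pde6c were under the filter. Pde5a, the highest of them by its mean over all 10 libraries (Pde9a was higher in PT1, PT2 and PT4), was listed at 1.59, 2.67 and 7.13 FPKM in AstroEGFR* and 0.345, 2.85, 2.80 and 0.536 in PT, with overlapping groups. Pde9a was listed at 0.856 to 1.64 FPKM in AstroEGFR* and at 3.80, 3.55, 0.188 and 4.82 in PT, so PT3 alone was below its parental culture. Pde6d, whose product is a chaperone of prenylated proteins rather than an enzyme, was steady, at 37.4, 20.2 and 39.1 FPKM in AstroEGFR* and 37.3, 18.7, 34.5 and 40.4 in PT. In batch 2 both cultures were at about the same lower level.

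No cyclase gene was called. Adcy6, a cyclase inhibited by calcium, was the most highly expressed in all 7 of these libraries, with 22.2, 17.8 and 14.3 FPKM in AstroEGFR* and 21.4, 22.5, 18.1 and 16.5 in PT, and a log2 fold change of 0.12 (SE 0.24). It took 38.9% to 72.9% of the summed cyclase FPKM in AstroEGFR* and 42.4% to 63.2% in PT. Adcy7 was listed at 0.989, 0.506 and 6.02 FPKM in AstroEGFR* and at 0.232, 0.208, 0.0606 and 0.174 in PT. The groups did not overlap, and the exact permutation p was 0.0286, with the batches ignored. The log2 fold change of -1.24 (SE 0.56), however, had an adjusted p of 0.397 (limma). Adcy7 passed the filter through AstroEGFR*3, and without that library it was not tested. AstroEGFR*3, with the highest Adcy7 of the group, also had the highest sums of microglia and fibroblast or meninges markers (39.3, of which Tmem119 gave 38.0, and 5180 FPKM), and their part in the value was not tested. Adcy1, a calcium-stimulated cyclase, was listed at 0.187, 0.535 and 0.364 FPKM in AstroEGFR* and 2.48, 1.85, 0.0768 and 5.23 in PT (log2 fold change 1.08, SE 0.59, adjusted p = 0.487, limma). It was higher than in the parental culture in PT1, PT2 and PT4 and lower in PT3. With a mean of 0.362 FPKM in AstroEGFR* and 2.41 in PT, Adcy1 passed the filter through PT. Adcy3, Adcy5 and Adcy9 overlapped, with log2 fold changes of 0.81, -0.11 and 0.08.

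**Figure D3:**
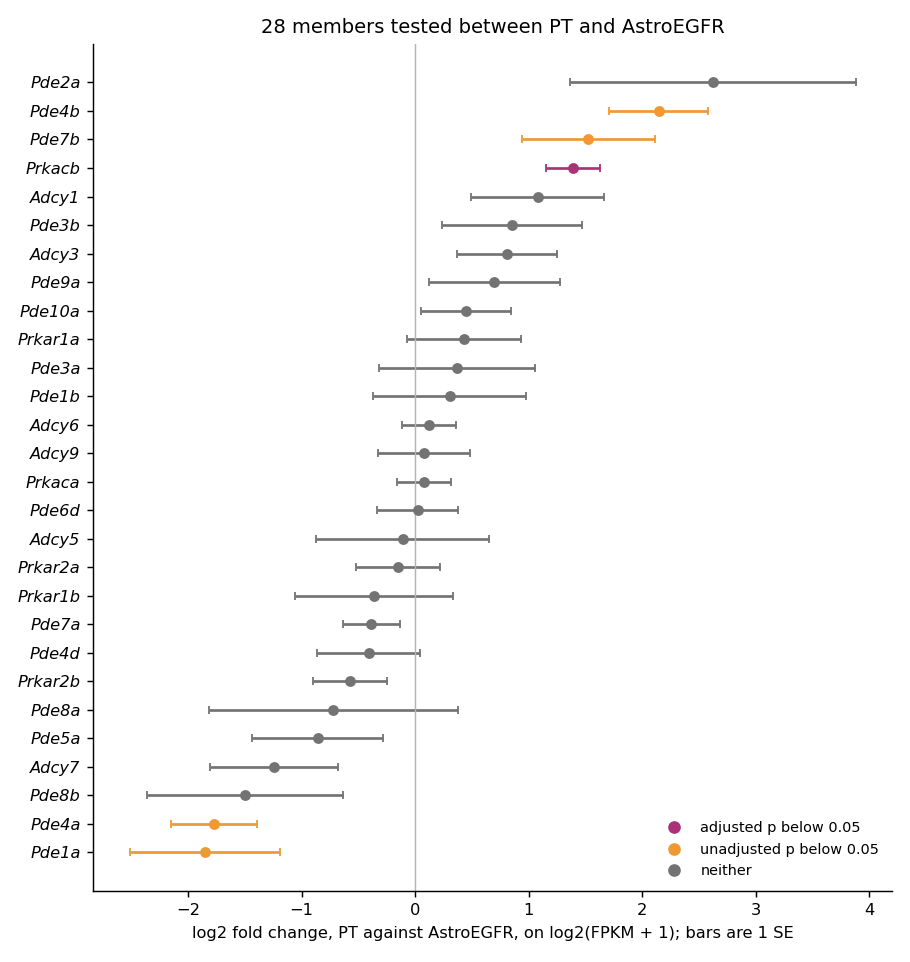
Log2 fold change of PT against AstroEGFR* with its standard error for the 28 members tested, from limma on log2(FPKM + 1) without a block. Prkacb is the only one with an adjusted p below 0.05, and Pde4b, Pde7b, Pde4a and Pde1a have an unadjusted p below 0.05.

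Counted over the 28 members tested, 16 were higher in PT and 12 lower. Their median log2 fold change was 0.08, and that of all 12261 features 0.03. In the fit without a block only Prkacb was called, and 1.24% of all features were. At an unadjusted p below 0.05 there were 5 members, or 17.9% (13.6% of all features), and 9, or 32.1%, had an absolute log2 fold change of at least 1 (15.8% of all features). The groups did not overlap for 5 members, 17.9% of those tested, against 14.8% of all features. With the batch as a block, Prkacb and Pde4b were called, with 3.87% of all features called in that fit. The median absolute log2 fold change was 0.63 over the members and 0.36 over all features. The shares of members without overlap and with an unadjusted p below 0.05 were thus near those of all features, while absolute log2 fold changes of at least 1 were more frequent among the members, a difference that was not tested.

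Genes around this machinery, from lists of receptors, G proteins, anchoring proteins and targets, were read from the same fit. Among CREB target genes (9 of 11 tested), Dusp1, a phosphatase of MAP kinases that serum also induces, fell in PT. It was listed at 38.2, 53.8 and 32.0 FPKM in AstroEGFR* and at 13.1, 5.47, 6.29 and 11.2 in PT, a log2 fold change of -2.13 (SE 0.35, adjusted p = 0.0372, limma). Whether the call of Dusp1 holds under the alternative settings was not looked at. Of the 9, 5 were higher and 4 lower (the median was 0.23 on the log2 scale), and besides Pde4b, Crem (6.96 to 10.2 FPKM in AstroEGFR*, 10.3 to 18.3 in PT) and Per1, a clock gene, were above all AstroEGFR* libraries in every PT library without passing the test (Per1 2.64 to 4.64 FPKM in AstroEGFR*, 6.83 to 8.82 in PT, log2 fold change 0.87, adjusted p = 0.184, limma). No other gene of the lists was called. Of the Gs-coupled receptors, 5 of 12 were tested, with 3 higher and 2 lower in PT. Adora2a, the adenosine A2a receptor, was listed at 0.217 to 0.456 FPKM in AstroEGFR* and at 8.82, 5.13, 2.34 and 5.19 in PT. Its adjusted p of 0.0572 (limma) missed the threshold. Adcyap1r1, the PACAP receptor, and Calcrl, the calcitonin receptor-like receptor, had the largest log2 fold changes (2.72 and 2.23). Adcyap1r1 was listed at 34.4 and 70.7 FPKM in PT1 and PT4 and at most 0.775 in PT2, PT3 and AstroEGFR*.

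Of the G protein genes (6 of 7 tested, 3 higher and 3 lower), Gnao1 and Gnai1 had log2 fold changes of -2.11 and 0.99. The PKA inhibitors Pkia and Pkig (2 of 3 tested) had -0.61 and -0.21. Of the A-kinase anchoring proteins, which hold PKA at its places in the cell (10 of 12 tested, 4 higher and 6 lower), Akap7 and Akap12 had 0.82 and -0.78. Among other cAMP effectors (3 of 9 tested), Rapgef4 and Rapgef3, exchange factors for Rap that cAMP activates, had 0.69 and 0.53. All 7 CREB factor genes were tested, with Crem at 0.59 and Crebbp at -0.27. In the cGMP list (4 of 10 tested), Gucy1b3, a subunit of soluble guanylyl cyclase, and Prkg1, a cGMP-dependent kinase, had 1.68 and 0.85. None of these values passed the test.

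The last comparison set the Zfp423-infected cultures against their own parental cultures, with the batch as a block. It shares the AstroEGFR* libraries with the first. The values bearing on the labels of batches 2 and 3 ran in different directions. Deviations from the group means correlated at 0.241 between AstroEGFR*1 and infected AstroEGFR*1, but at -0.111 and -0.262 within batches 2 and 3. They correlated at 0.308 between AstroEGFR*3 and the library labelled infected AstroEGFR*2, and at 0.224 between AstroEGFR*2 and the library labelled infected AstroEGFR*3. The library labelled infected AstroEGFR*3 also had a higher correlation of log2(FPKM + 1) with AstroEGFR*2 (r = 0.884) than with AstroEGFR*3 (r = 0.721) over 12476 features. The library labelled infected AstroEGFR*2 correlated more with AstroEGFR*2 (r = 0.783) than with AstroEGFR*3 (r = 0.748). Other values ran with the labels. The study describes the strongest Zfp423 overexpression in batch 3. Zfp423 was listed at 105 FPKM in the library labelled infected AstroEGFR*3, against 15.7 and 9.73 in the other infected cultures. AstroEGFR*2 and AstroEGFR*3 deviated together with PT2 and PT3 of their own batches (0.426 and 0.499). The labels were kept, and every multiple of a parental level in batches 2 and 3, and every direction drawn from it, holds only if the labels are right. The log2 fold changes of the whole comparison do not depend on which culture was the parent of which, and without the block no member was called either. No member was called, and at an unadjusted p below 0.05 there was 1 of 24, Pde3a. In limma 0% of all 12366 features were called and 7.38% had an unadjusted p below 0.05. An absolute log2 fold change of at least 1 was seen for Adcy7, Pde3a and Pde8b, 3 of 24 members, and for 12.3% of all features. Of the members, 8 were higher and 16 lower with Zfp423, with a median log2 fold change of -0.14, against 0.02 over all features.

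Pde3a, the gene of a PDE that cGMP inhibits, was higher in all 3 infected cultures. It was listed at 0.380, 1.96 and 5.31 FPKM in AstroEGFR*1 to AstroEGFR*3 and at 7.47, 5.93 and 9.53 with Zfp423, which is 19.7, 3.02 and 1.80 times the parental level. The groups did not overlap, and the log2 fold change was 1.53 (SE 0.48) with an adjusted p of 0.628 (limma). Groups without overlap were seen for 1 of the 24 members (4.17%) and for 11.5% of all features. The log2 fold change of Pde3a was 0.98 without AstroEGFR*1, 1.68 without AstroEGFR*2 and 1.92 without AstroEGFR*3. In PT Pde3a was listed at 4.002, 6.67, 0.492 and 2.69 FPKM. Pde8b was listed at 2.08, 1.60 and 0.684 FPKM with Zfp423. It was 1.27, 0.0515 and 0.134 times the parental level. The log2 fold change was -1.75 (SE 0.82, adjusted p = 0.643, limma) and was -0.81 without batch 2 and -2.74 without batch 1.

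Adcy7 moved in opposite directions in different batches. It was listed at 27.3 and 28.9 FPKM in infected AstroEGFR*1 and AstroEGFR*2, the highest values of all 10 libraries, and at 0.112 in infected AstroEGFR*3, against 0.989, 0.506 and 6.02 in the parental cultures. In the first 2 it took 48.4% and 38.9% of the summed cyclase FPKM and stood above Adcy6 (16.9 and 25.9 FPKM). The log2 fold change was 1.83 (SE 1.58, adjusted p = 0.757, limma), and the single infected library besides these 2 was below AstroEGFR* (log2 fold change -1.31 from that 1 library, without the block). With the block it was 4.07 without batch 3, 0.59 without batch 2 and 0.83 without batch 1. These 2 are the libraries with microglia markers: C1qa was listed at 433 and 290 FPKM, Csf1r at 202 and 108, Ptprc at 28.9 and 23.3 and Aif1 at 30.7 and 8.04, against at most 1.71, 0.691, 0.730 and 0.0455 in AstroEGFR*. In infected AstroEGFR*3, C1qa and Aif1 were listed at 0. The part of these markers in the Adcy7 values was not tested.

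**Figure D4:**
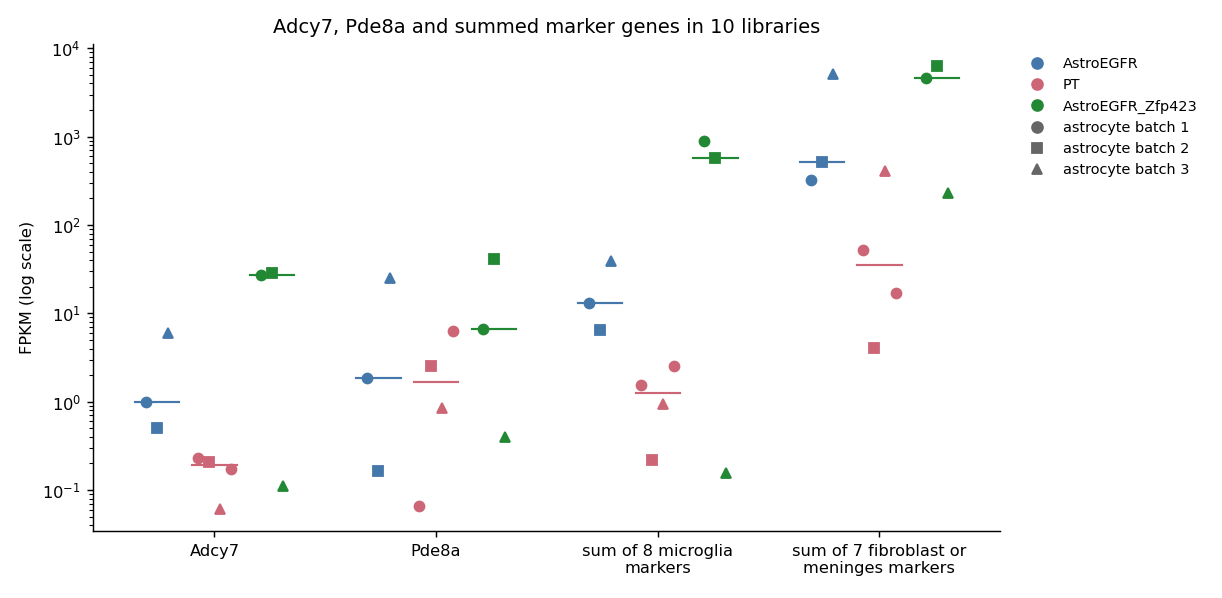
FPKM on a log scale of Adcy7 and Pde8a and of summed microglia and fibroblast or meninges markers in 10 libraries, coloured by group, with a symbol for each astrocyte batch and a line at the group median. Adcy7 and the microglia sum are highest in infected AstroEGFR*1 and AstroEGFR*2, and Pde8a is highest in infected AstroEGFR*2 (41.0 FPKM) and in uninfected AstroEGFR*3 (25.1 FPKM).

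Pde8a, of a cAMP-specific family of high affinity, varied widely between libraries of 1 group. It was listed at 1.84, 0.166 and 25.1 FPKM in AstroEGFR* and at 6.58, 41.0 and 0.397 with Zfp423. In PT1 to PT4 it was listed at 0.0662, 2.54, 0.843 and 6.38 FPKM. Both high values, in AstroEGFR*3 and infected AstroEGFR*2, were in the libraries with the highest fibroblast or meninges sums (5180 and 6288 FPKM). Infected AstroEGFR*1, with a sum of 4561, had 6.58, a level close to that of PT4. The sums in PT1 to PT4 were 52.7, 4.07, 404 and 17.2, so Pde8a did not follow the sum in every library. Pde5a had its highest values in AstroEGFR*3, infected AstroEGFR*2 and infected AstroEGFR*1, with 7.13, 17.2 and 4.38 FPKM. It was at most 2.85 elsewhere, with 1.02 in infected AstroEGFR*3. The part of fibroblast or meninges cells in these values was not tested. Pde3b and Adcy3 were also higher than in the parental culture in batches 1 and 2 (6.08 and 5.42 times for Pde3b, 2.58 and 6.04 times for Adcy3) and lower in batch 3 (0.158 and 0.212 times).

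Infected AstroEGFR*3 stood apart from the other infected libraries. It had the highest Zfp423, the lowest microglia sum and the highest share of small non-coding RNA (54.4%). Tagln, a serum-responsive contractile gene, was listed at 35.5 FPKM in it and at 407 and 960 in the other infected cultures. Of the members, Pde4b was listed at 21.2 FPKM in it (6.95 and 3.99 in infected AstroEGFR*1 and AstroEGFR*2), Pde4a at 0.414 (3.07 and 5.76), Pde2a at 17.0 (0.463 and 0.0530) and Prkacb at 69.5 (45.3 and 34.5). These 4 were picked after their values were seen, and Pde7b, higher in PT, was listed at 0.257 FPKM in infected AstroEGFR*3, below every AstroEGFR* library. On a scale from 0 for the mean of AstroEGFR* to 1 for that of PT, its median position over the 151 other features called between these groups was 0.605, against 0.0419 and 0.0174 in the other infected cultures. Pde1a was listed at 77.6 FPKM in it, against 8.44 and 8.61 in the other infected cultures and 48.2 in AstroEGFR*3, and took 51.0% of the cAMP-hydrolysing PDE FPKM.

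**Figure D5:**
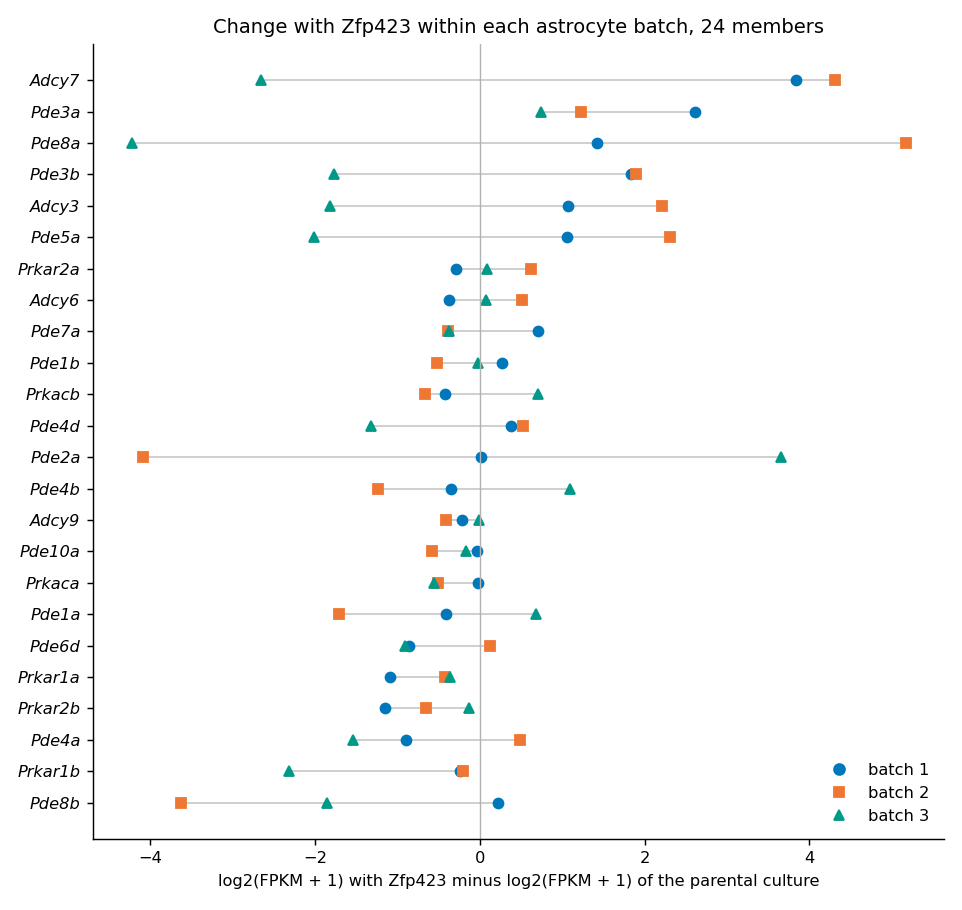
Difference in log2(FPKM + 1) between each Zfp423-infected culture and its parental AstroEGFR* culture, with 1 symbol for each of 3 batches, for the 24 members tested. Pde3a is higher in all 3 batches, while Adcy7, Pde8a, Pde3b, Adcy3 and Pde5a are higher in batches 1 and 2 and lower in batch 3.

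The PKA subunits did not pass the test with Zfp423. Prkacb was 0.740, 0.625 and 1.65 times the parental level (log2 fold change -0.13, SE 0.35, adjusted p = 0.932, limma). Prkaca was 0.989, 0.702 and 0.673 times it. Prkar1a was listed at 91.7, 77.2 and 126 FPKM, below the parental culture in all 3 batches (0.468, 0.746 and 0.776 times), with a log2 fold change of -0.62 (SE 0.28, adjusted p = 0.640, limma). Prkar2b and Prkar1b were also below the parental culture in all 3 batches, with log2 fold changes of -0.64 and -0.92. Prkacb took 48.5%, 40.5% and 60.5% of the catalytic FPKM. Adcy6 (16.9, 25.9 and 15.2 FPKM), Pde7a (21.9, 13.1 and 13.4) and Pde6d (20.2, 22.1 and 20.5) had log2 fold changes of 0.07, -0.02 and -0.55. Adcy1 (0.297, 1.25 and 0.885 FPKM) and Pde7b (0.671, 0.288 and 0.257) were under the filter in this comparison.

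None of the genes of the surrounding lists was called with Zfp423. The lowest p-values were those of Pkig, a PKA inhibitor, at 69.8, 65.6 and 136 FPKM in AstroEGFR* and 44.8, 16.2 and 34.2 with Zfp423 (log2 fold change -1.51, SE 0.36, adjusted p = 0.628, limma), and of Gnao1, the G protein alpha subunit o (log2 fold change -1.54). Both were lower in all 3 batches. Gnai1 had -1.17 and Pkia -0.90. Among the receptors (5 tested, 4 higher), Calcrl and Adrb1, the beta 1 adrenergic receptor, had log2 fold changes of 1.29 and -1.23. Akap6 and Akap10 had -1.26 and 0.54, Hcn2 and Rapgef3 -0.68 and -0.45, Crebbp and Crtc2 0.94 and -0.83, Fos and Nr4a1 1.51 and 1.00, and Prkg2 and Prkg1 1.56 and 0.78. Dusp1, which fell in PT, was listed at 67.8, 79.2 and 25.2 FPKM with Zfp423 (log2 fold change 0.34).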

How the data were processed

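RNAseq of 10 libraries was used. The authors deposited 1 matrix of FPKM values, which the submitters' processing notes tie to TopHat 1.3, Cuffnorm and mouse build mm9, with an annotation not given in the sources used here. The labels name a TruSeq kit, while the paper describes ribosomal RNA removal and stranded libraries. FPKM hold no counts, so the precision that depth gives is unknown. Relative depth is the most common ratio to the FPKM of 1 library among features at 0 in 3 libraries or more.

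Values were transformed to log2(FPKM + 1), which understates changes of weak genes, filtered at a mean of 1 FPKM in the libraries compared, and tested with limma 3.58.1 in R 4.3.3 (empirical Bayes with trend, Benjamini-Hochberg adjustment, threshold 0.05). PT and AstroEGFR* were compared without a block, and the calls and shares given first come from that fit. The block used as an alternative rests on the study's batches, and deviations from group means correlated at 0.346 to 0.499 in the 4 same-batch pairs. The fit without a block ignores this pairing, so the calls of both fits are given for the members. Zfp423-infected cultures were compared with the labelled batch as a block. Values in every library are given for members with p below 0.05 or an absolute log2 fold change of at least 1 in either comparison and for the highest member of each class. Other members named were chosen after their values were seen. Of the surrounding lists, genes called are given, otherwise the 2 with the largest changes, and Adora2a, Per1 and Crem were added after their values were seen. Members and lists were chosen with earlier results of these data known. Alternatives were a pseudocount of 0.1, no filter, median-ratio scaling, no trend, all 10 libraries in 1 fit, the block, PT1 and PT4 averaged, no batch 3 and each library left out. A fit without both libraries with microglia markers and without the block was chosen after seeing the data. Shares, motifs and figures were made with numpy 2.4.6, pandas 2.3.3 and matplotlib 3.10.9 in Python 3.11.15.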

Additional observations from a re-analysis of the deposited data

Results flagged for a closer look

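In the 4 PT libraries, the extreme value stood far from the others for 2 of the 28 members looked at, where chance gives about 1 in 20. Pde4d was high in PT2, with a gap of 0.847 of the range of the group, and Pde9a was low in PT3, with a gap of 0.845. Pde4d was listed at 7.33 FPKM in PT2 and 1.59 to 2.10 in the other PT, and Pde9a at 0.188 FPKM in PT3 and 3.55 to 4.82 in the others.

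For 4 members the change with Zfp423 was at least 2 on the log2 scale in opposite directions in different batches, and the difference was not tested. It depends on the labels of batches 2 and 3, on which the values given above ran in different directions. It spanned 6.97 for Adcy7 and 4.32 for Pde5a, which were higher in batch 2 and lower in batch 3, and 9.39 for Pde8a, likewise higher in batch 2 and lower in batch 3. It spanned 7.74 for Pde2a, which was higher in batch 3 and lower in batch 2.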

How the results depend on the processing

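Among the members, 1 was called between PT and AstroEGFR*. With the replicate block it was 2 (Prkacb and Pde4b, whose log2 fold change was then 2.28), and it was 0 with all 10 libraries in 1 fit, with PT1 and PT4 averaged, without batch 3, and without each library in turn (0 to 0). Of all features, 152 were called, with 475 under the replicate block, 82 with all 10 libraries in 1 fit, 61 with PT1 and PT4 averaged, 8 without batch 3 and 7 to 123 without each library in turn. The count of 7 was without AstroEGFR*1, 54 without AstroEGFR*3, 58 without PT4, 70 without PT2 and 97 without PT1. Leaving out or averaging libraries leaves fewer in the fit, and the cause of the other moves was not tested. With Zfp423 no member was called in any setting run. Of all features, 0 were called, 2 with no replicate block, 12 without both libraries with microglia markers and without the block together, which leaves 1 infected library assumed to vary like AstroEGFR*, and 0 to 60 without each library in turn, with 47 without AstroEGFR*2 and 60 without infected AstroEGFR*2.

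Of 174 values of single members under the alternatives, 162 kept their direction and side of the threshold, 10 (all of Prkacb) lost the call and 1 (Pde4b, under the block) gained it. Every member among them except Prkacb was uncalled in the main fit, so the 162 say little about stability. Adcy7 with Zfp423 turned from 1.83 to -1.31 without both libraries with microglia markers and without the block, which rests on the 1 infected library left. The pairing changed no other call. With Zfp423, deviations of same-batch pairs correlated at 0.241, -0.111 and -0.262, and those of batches 2 and 3 exchanged at 0.308 and 0.224. The low depth of AstroEGFR*3 and PT3 limits what can be read from weak genes such as Pde9a or Adcy1 in batch 3.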
